A study of Mus musculus with 6 samples.

Results

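Lysyl oxidases and the proteins of elastic fibres were followed as 10 genes in hearts of E18.5 mouse embryos. They were found by gene symbol among the 24421 genes of the deposited expression table, and all 10 were present. They comprised 4 lysyl oxidases (Lox, Loxl1, Loxl2, Loxl3), elastin (Eln), 2 fibrillins (Fbn1, Fbn2), 2 fibulins (Fbln5, Efemp2) and the microfibril glycoprotein gene Mfap5. Poly(A) RNA was sequenced in 3 libraries labelled Gas2l3 -/-, called knockout-labelled here, and 3 labelled wildtype, all on a C57/Bl6 background. How the Gas2l3 allele was made, and whether libraries stem from different embryos, is not in the labels. The p-values therefore cover the spread between these 6 libraries, which may be technical. Gas2l3 codes for a cytoskeletal linker of actin and microtubules, and the study is titled for defects in the division of heart muscle cells.

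Elastic fibres give arteries, heart valves and the great vessels their recoil. Secreted tropoelastin, the product of Eln, is gathered by fibulins onto a scaffold of fibrillin microfibrils. Lysyl oxidases, copper-dependent enzymes, then oxidise lysines so that elastin and collagen chains become crosslinked. In the heart these genes are expressed chiefly by fibroblasts, valve cells and smooth muscle rather than by cardiomyocytes.

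Before the results, 3 facts of the libraries matter. Recovered reads came to between 5514800 and 6483168 per knockout-labelled library and between 3414257 and 7732674 per wildtype-labelled library. The targeted gene did not separate the groups as deposited: Gas2l3 was at 4.03, 2.99 and 3.06 FPKM in knockout-labelled replicates 1, 2 and 3, against 10.3, 4.12 and 2.48 FPKM in the wildtype-labelled replicates. Wildtype-labelled replicate 3 thus lay below every knockout-labelled library, and directions below refer to the libraries as labelled. The Gas2l3 difference was −0.47 on the log2 scale (SE 0.44, limma adjusted p = 0.966). FPKM are fragments scaled for gene length and between libraries, and their totals still ran from 429622 to 788996. Wildtype-labelled replicate 3 stood apart by base composition: across 11709 genes, the gene-wise deviation of this library from the 6-library mean had a correlation of 0.70 with GC content, against −0.48 to −0.07 in the other 5 libraries. Once trends on GC and length were removed, Gas2l3 ran from 1.77 to 1.94 on the log2(FPKM + 0.5) scale in knockout-labelled libraries, against 2.17 to 2.95 in wildtype-labelled libraries, and the groups did not overlap. Which part of the gene is missing is not in the labels, so its level cannot check the genotype.

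The comparison asked whether matrix crosslinking and elastic fibre genes differ when Gas2l3 is labelled as deleted. No member passed: limma called 0 of the 10 at an adjusted p under 0.05, as it called 0% of all 12121 genes tested. At an unadjusted p under 0.05 there were 230 genes higher and 164 lower by limma, and voom on recovered reads also called 0 genes. All 10 members passed the expression minimum of 1 FPKM in at least 3 libraries. Lox had the largest difference, with every knockout-labelled library above every wildtype-labelled one. Elastin was the most abundant member in each of the 6 libraries, and differed more between replicates of a group than between the groups. By mean FPKM over the 6 libraries the order was Eln (246), Loxl2 (29.9), Loxl1 (28.9), Efemp2 (26.5), Mfap5 (19.0), Fbn1 (17.1), Fbn2 (15.2), Lox (10.3), Fbln5 (7.23) and Loxl3 (1.97). Apart from Eln, no gene exceeded the next in that order in all 6 libraries, and Mfap5 over Fbn1 and Fbn1 over Fbn2 held in 3 of 6.

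Lox, the founding lysyl oxidase, stood at 10.7, 10.5 and 17.9 FPKM in knockout-labelled replicates 1, 2 and 3, against 7.55, 6.46 and 8.83 FPKM in the wildtype-labelled replicates. The lowest knockout-labelled value lay above the highest wildtype-labelled value, so the groups did not overlap. Means were 13.0 ± 4.22 FPKM in knockout-labelled and 7.62 ± 1.18 FPKM in wildtype-labelled libraries (SD, n = 3 each), a log2 fold change of 0.70 (SE 0.28, unadjusted p = 0.0368, limma adjusted p = 0.966). Lox was the only member whose groups did not overlap in this direction, 1 of 10, where 5.02% of all tested genes did so. It was likewise the only member at an unadjusted p under 0.05, where 1.9% of all tested genes were so in the higher direction. No member was so in the lower direction (1.35% of genes). Lox was covered by 140 to 611 reads a library. Without knockout-labelled replicate 3 the log2 fold change was 0.46. With GC and length trends removed it was 0.50 (SE 0.35, limma adjusted p = 0.731), and the groups overlapped, since wildtype-labelled replicate 3, at 3.81 on the log2 scale, exceeded knockout-labelled replicates 1 (3.19) and 2 (3.48).

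Loxl2, which also oxidises collagen IV of basement membranes, was the second most abundant member. It was at 32.7, 26.6 and 39.5 FPKM in knockout-labelled replicates, against 25.6, 20.0 and 34.7 FPKM in wildtype-labelled replicates. Each knockout-labelled library exceeded the wildtype-labelled library of the same number, but the groups overlapped, and the log2 fold change came to 0.31 (SE 0.30, limma adjusted p = 0.966), running from 0.13 (no wildtype-labelled replicate 2) to 0.51 (no wildtype-labelled replicate 3) with 1 library left out. Lox and Loxl2 were the 2 members higher in all 3 pairs of equal number, 2 of 10, where 16.6% of all tested genes were.

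Loxl1, the lysyl oxidase most closely tied to elastin deposition, differed from Lox in its levels as deposited. It was at 22.1, 24.2 and 29.1 FPKM in knockout-labelled replicates, against 13.9, 22.9 and 61.4 FPKM in wildtype-labelled replicates. The wildtype-labelled values spanned 4.42-fold and enclosed all 3 knockout-labelled ones. It had a log2 fold change of −0.11 (SE 0.49, limma adjusted p = 0.985), the single negative one among the 10. Without wildtype-labelled replicate 3 the value was 0.47, and with trends removed it was 0.19. Loxl1 has the highest GC content of the members, 61.0% in its longest transcript, and Lox the lowest, 43.9%.

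Loxl3, a further family member with a role in collagen assembly, was the lowest of the 10 genes in 5 of the 6 libraries. It was at 2.52, 1.83 and 1.89 FPKM in knockout-labelled replicates, against 1.25, 1.01 and 3.32 FPKM in wildtype-labelled replicates, on 19 to 82 reads. The groups overlapped and the log2 fold change came to 0.25 (SE 0.38, limma adjusted p = 0.966).

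Within the family, shares were taken on the values as deposited, where base composition set wildtype-labelled replicate 3 apart. The shares of Lox, Loxl1 and Loxl2 spread more among wildtype-labelled than among knockout-labelled libraries, while that of Loxl3 did not. Lox made up 15.7%, 16.6% and 20.2% of the summed FPKM of the 4 enzymes in knockout-labelled replicates, against 15.7%, 12.8% and 8.16% in wildtype-labelled replicates. The lowest knockout-labelled share and the highest wildtype-labelled share were nearly equal, so the groups were adjacent without a gap. Loxl1 made up 32.5% to 38.3% in knockout-labelled and 28.8% to 56.7% in wildtype-labelled libraries. Loxl2 was the largest component in every knockout-labelled library, at 42.2% to 48.1%, and in wildtype-labelled replicate 1 (53.0%). Shares were not computed with GC and length trends removed. On that log2 scale Lox in wildtype-labelled replicate 3, at 3.81, exceeded knockout-labelled replicates 1 (3.19) and 2 (3.48). Loxl1 was there at 5.08 in wildtype-labelled replicate 3, against 4.68 to 5.04 in knockout-labelled libraries.

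**Figure D1:**
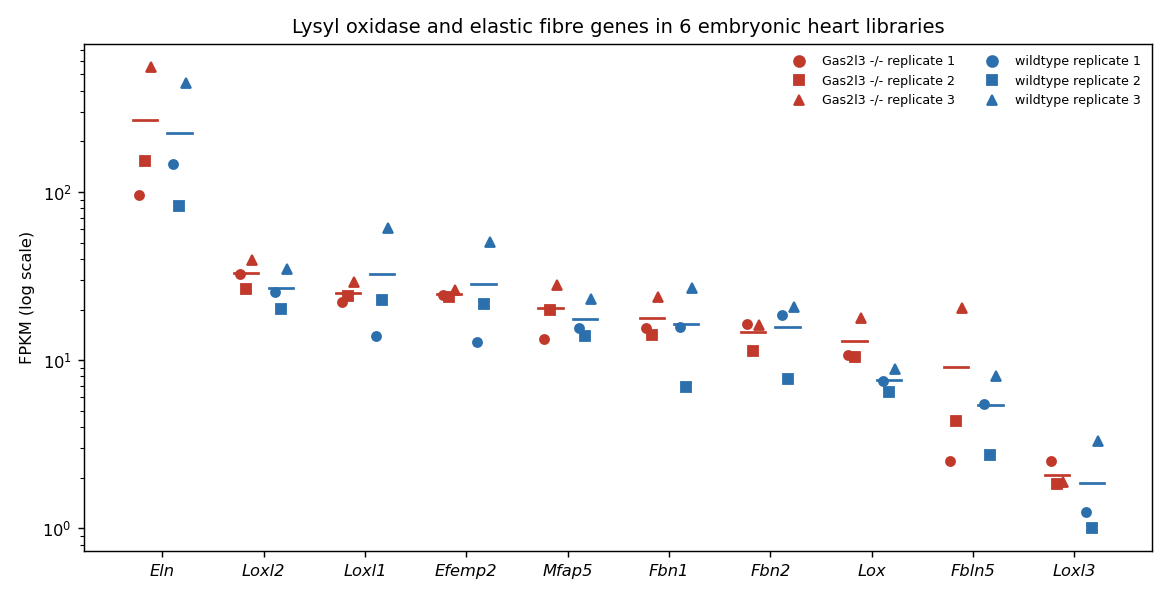
Levels of the 10 genes in FPKM on a log axis, ordered by mean level, with knockout-labelled (Gas2l3 -/-) libraries in red to the left of wildtype-labelled libraries in blue. Shapes mark the replicate number and bars the group mean (n = 3). Lox is the gene whose red and blue points do not overlap, and both triangles of Eln, the replicates numbered 3, stand near the top at 553 and 446 FPKM.

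Eln, the gene of tropoelastin, was at 96.4, 153 and 553 FPKM in knockout-labelled replicates 1, 2 and 3, against 147, 82.3 and 446 FPKM in wildtype-labelled replicates. Both libraries numbered 3 were high and the other 4 low, in either group. The values spanned 5.73-fold within the knockout-labelled and 5.42-fold within the wildtype-labelled libraries. Beside this spread the log2 fold change came to 0.20 (SE 0.76, limma adjusted p = 0.980). It was −0.53 without knockout-labelled replicate 3, −0.35 without wildtype-labelled replicate 2 and 0.87 without wildtype-labelled replicate 3. Reads are no limit here, at 2073 to 14354 per library. The within-group SD of Eln on the log2 scale, 1.27, was higher than that of 99.1% of all tested genes, whose median was 0.405.

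Fbln5 encodes fibulin-5, which binds tropoelastin and integrins and guides elastin onto microfibrils. It was at 2.52, 4.34 and 20.3 FPKM in knockout-labelled replicates, against 5.47, 2.72 and 8.06 FPKM in wildtype-labelled replicates. Like Eln it was highest in the library numbered 3 of each group, and knockout-labelled replicate 3 was 8.07-fold above replicate 1. The log2 fold change came to 0.30 (SE 0.67, limma adjusted p = 0.969), or −0.52 without knockout-labelled replicate 3. The ratio of Eln to Fbln5 in FPKM was 38.3, 35.2 and 27.2 in knockout-labelled replicates and 26.9, 30.3 and 55.3 in wildtype-labelled replicates, a narrower range than that of either gene.

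Efemp2 encodes fibulin-4, which brings lysyl oxidase to tropoelastin. It was at 24.4, 23.7 and 26.3 FPKM in knockout-labelled replicates, against 12.9, 21.5 and 50.2 FPKM in wildtype-labelled replicates. The knockout-labelled values lay within 1.11-fold of each other, while the wildtype-labelled values spanned 3.89-fold around them. The log2 fold change came to 0.04 (SE 0.45, limma adjusted p = 0.994), −0.40 without wildtype-labelled replicate 1 and 0.56 without wildtype-labelled replicate 3.

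The fibrillins form the microfibril scaffold, with Fbn2 the form best known from fetal tissue. Fbn1 was at 15.6, 14.1 and 23.6 FPKM in knockout-labelled replicates, against 15.7, 6.94 and 26.7 FPKM in wildtype-labelled replicates. Fbn2 was at 16.4, 11.4 and 16.2 FPKM in knockout-labelled replicates, against 18.4, 7.75 and 20.8 FPKM in wildtype-labelled replicates. Both were lowest in wildtype-labelled replicate 2 and the groups overlapped. Log2 fold changes were 0.27 for Fbn1 (SE 0.46, limma adjusted p = 0.966) and 0.0033 for Fbn2 (SE 0.38, limma adjusted p = 0.9999). Without wildtype-labelled replicate 2 they were −0.23 and −0.42. Fbn2 made up 51.3%, 44.6% and 40.6% of fibrillin FPKM in knockout-labelled replicates and 54.1%, 52.7% and 43.8% in wildtype-labelled replicates, so both fibrillins were present at similar levels throughout.

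Mfap5, a microfibril-associated glycoprotein, was at 13.4, 19.8 and 28.1 FPKM in knockout-labelled replicates, against 15.6, 13.9 and 23.2 FPKM in wildtype-labelled replicates. The libraries numbered 3 were again the highest of their groups. The log2 fold change came to 0.19 (SE 0.34, limma adjusted p = 0.966).

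Across all members the replicate number was more visible than the label. Replicate 3 was the highest of the knockout-labelled group for 8 of 10 members and of the wildtype-labelled group for 10 of 10. Both held for 8 of 10 members, Loxl3 and Fbn2 being the exceptions, where 14.3% of all tested genes did so. Wildtype-labelled replicate 2 was the lowest of its group for 8 of 10 members. In pairs of equal number the knockout-labelled library was higher for 5 members in replicates 1, for 10 in replicates 2 and for 5 in replicates 3. Shares over all tested genes were not computed for the counts by single group or single pair, so these do not set the members apart from other genes. The within-group SD was above the median of all tested genes for 8 of 10 members, Lox and Loxl2 being the exceptions.

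**Figure D2:**
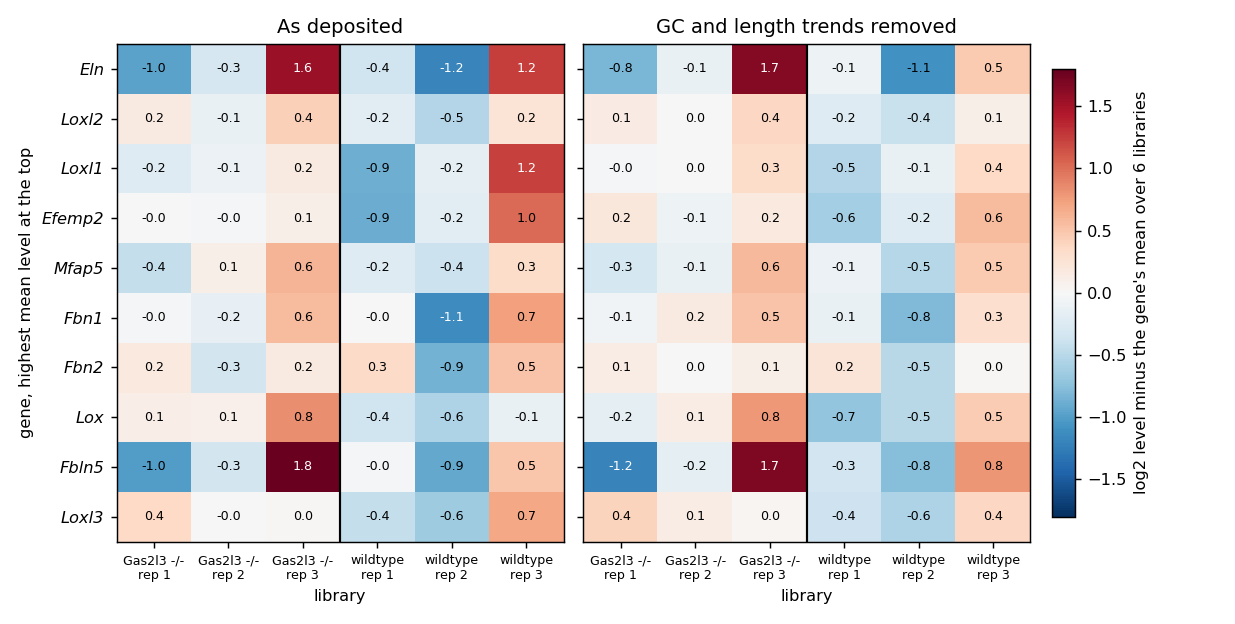
Log2 level of each gene in each library minus that gene's mean over the 6 libraries, as deposited (left panel) and with GC and length trends removed (right panel), with knockout-labelled (Gas2l3 -/-) libraries left of the black line in each panel. Eln and Fbln5 are highest in knockout-labelled replicate 3 in both panels, and the excess of Loxl1 and Efemp2 in wildtype-labelled replicate 3 is smaller in the right panel.

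The 10 genes followed more than a single profile. Given as a description over 6 libraries that differ in depth and base composition, Pearson's r on the log2(FPKM + 0.5) scale was 0.95 between Eln and Mfap5, 0.94 between Eln and Fbln5 and 0.92 between Fbln5 and Mfap5. Loxl1 and Efemp2 formed another pair at 0.98 as deposited, and at 0.91 with trends removed. That pair did not stand apart from Lox once trends were removed. Between Lox and Efemp2 Pearson's r was 0.24 as deposited and 0.78 with trends removed. Between Lox and Loxl1 it was 0.20 as deposited and 0.93 with trends removed. This was the largest shift among all pairs of members, between the genes of lowest and highest GC content. The Eln, Fbln5 and Mfap5 values were 0.94 to 0.96 with trends removed.

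Promoter sequences from the RefSeq promoter table are shown for 3 of the 10 members, Fbn1, Fbln5 and Efemp2. Each was highest in the library numbered 3 of both groups. They are a selection, and a member not shown may also have a window in that table. The first listed start site of each gene is shown. Each window runs from 250 bases before to 50 bases after an annotated start site (RefSeq, GRCm38.p6, the build named mm10 in the submitters' processing notes), 5′ to 3′ on the gene's strand. Capitals mark matches on either strand to GGGCGG (GC box) or GTCTG (core of the SMAD motif). The windows are chr2:125506389-125506688 on the minus strand for Fbn1, chr12:101819070-101819369 on the minus strand for Fbln5 and chr19:5473696-5473995 on the plus strand for Efemp2.
Fbn1: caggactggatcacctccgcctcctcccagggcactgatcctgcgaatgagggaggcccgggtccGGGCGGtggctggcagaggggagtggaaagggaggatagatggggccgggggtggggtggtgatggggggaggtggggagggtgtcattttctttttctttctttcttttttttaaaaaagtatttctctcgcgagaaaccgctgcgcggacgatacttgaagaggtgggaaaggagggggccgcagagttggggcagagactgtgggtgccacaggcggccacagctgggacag
Fbln5: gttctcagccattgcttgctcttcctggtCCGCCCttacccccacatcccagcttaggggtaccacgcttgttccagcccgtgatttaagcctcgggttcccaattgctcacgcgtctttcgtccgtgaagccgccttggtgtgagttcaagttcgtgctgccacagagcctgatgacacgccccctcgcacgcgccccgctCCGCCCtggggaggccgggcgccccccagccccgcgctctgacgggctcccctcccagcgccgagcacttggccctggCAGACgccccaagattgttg
Efemp2: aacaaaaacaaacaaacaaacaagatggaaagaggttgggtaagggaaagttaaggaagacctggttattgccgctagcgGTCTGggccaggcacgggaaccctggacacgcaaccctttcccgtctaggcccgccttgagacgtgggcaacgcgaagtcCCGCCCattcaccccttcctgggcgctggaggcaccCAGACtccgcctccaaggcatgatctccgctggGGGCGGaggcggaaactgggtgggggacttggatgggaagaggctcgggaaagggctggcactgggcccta
The Fbn1 window holds 1 GC box, the Fbln5 window 2 GC boxes and 1 SMAD core, and the Efemp2 window 2 of each, with no overlap between the motifs. The table lists further start sites, whose counts differ: Fbln5 site 2 holds 0 GC boxes and 2 SMAD cores, and Efemp2 sites 2 and 3 hold 5 and 7 GC boxes and no SMAD core. Of 32851 promoter windows of this length, 35.7% hold a GC box and 49.6% the SMAD core. TGANTCA (AP-1, in 7.81% of windows), GGAATG (TEAD, 14.7%) and TATAAA (13.6%) were searched on both strands and have no match in any of these windows. GC content of the printed windows was 60.3% for Fbn1, 65.7% for Fbln5 and 60.3% for Efemp2, against a median of 52.7% over all windows.

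Where the genes lie bears on how their reads could be shared. On GRCm38 (GENCODE M21), Eln spans 134702593 to 134747323 on chromosome 5 (minus strand), Loxl1 spans 58287738 to 58313186 on chromosome 9 (minus strand) and Loxl2 spans 69609068 to 69695834 on chromosome 14 (plus strand). Fbln5 lies on chromosome 12, Efemp2 on chromosome 19, Fbn1 on chromosome 2, Loxl3 and Mfap5 on chromosome 6, and Lox and Fbn2 on chromosome 18. Exons on the opposite strand overlap 20.1% of the exonic bases of Fbn1 (Gm9913) and 11.6% of those of Loxl3 (Htra2), and under 6% of those of any other member. Whether strand was used in counting is not given in the sources used here, so reads in those stretches cannot be assigned to a strand.

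The log2 fold changes of the 10 members together had a median of 0.22, against −0.0089 over all tested genes. Log2 fold changes were above 0 for 9 of 10 members, where 49% of all tested genes were. Means in FPKM were higher in the knockout-labelled group for 7 of 10, where 45% of all tested genes were, the exceptions being Loxl1, Fbn2 and Efemp2. With GC and length trends removed, 10 of 10 log2 fold changes were above 0, with a median of 0.28, where 49.4% of genes were, and none of the 10 had groups that did not overlap, in either direction (6.84% of genes higher, 8.15% lower). That fit called 0.00854% of all genes, none of them a member. Without wildtype-labelled replicate 3, 10 of 10 were above 0, with a median of 0.59, where 50.1% of genes were. Lox and Loxl3 were then the 2 members at an unadjusted p under 0.05, where 2.78% of genes were in that direction. The median was −0.03 without knockout-labelled replicate 3 and −0.07 without wildtype-labelled replicate 2. In every one of these fits 0 members were called.

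**Figure D3:**
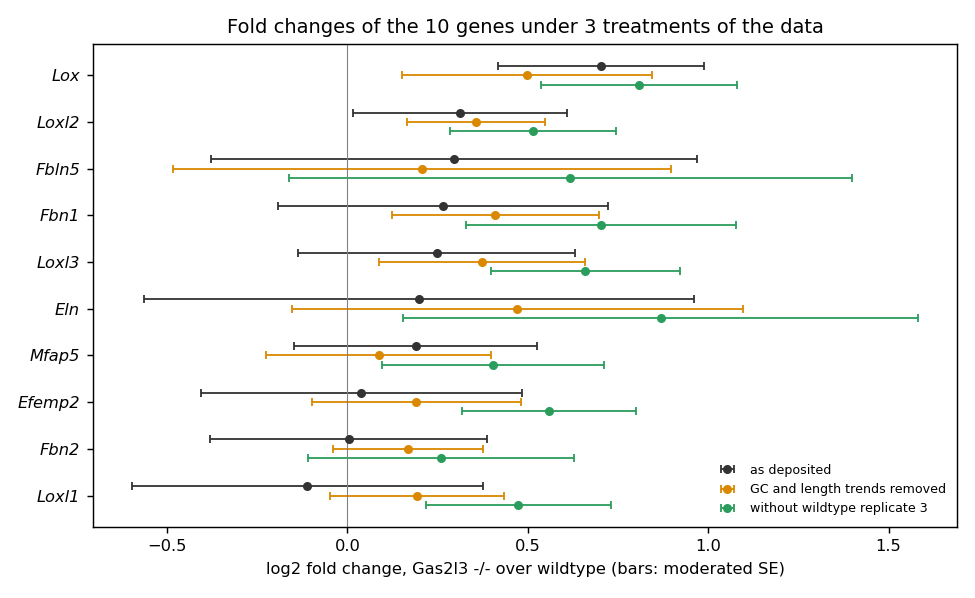
Log2 fold change of each gene, knockout-labelled (Gas2l3 -/-) over wildtype-labelled, as deposited (black), with GC and length trends removed (orange) and without wildtype-labelled replicate 3 (green), with bars for the moderated SE. Points of Lox lie between 0.50 and 0.81, and the point of Loxl1 moves from −0.11 to 0.47 when wildtype-labelled replicate 3 is left out.

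By the authors' deposited table, members with positive log2 fold changes numbered 7 and those with negative ones 3, and 0 were called (smallest adjusted p = 0.998), where 0.0735% of its genes with an adjusted p were. Among the 10 members Lox had the largest value in the authors' deposited table, at 0.59 (SE 0.26, unadjusted p = 0.0250). Loxl1 was at −0.24 (SE 0.30), Efemp2 at −0.12 (SE 0.30) and Fbn2 at −0.07 (SE 0.28) in the authors' deposited table.

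The pathway around the members was read from 5 gene lists, and no gene in them was called by limma. Of 19 microfibril and other elastic fibre proteins, all tested, 14 had a log2 fold change above 0 and 5 below (median 0.19). In 11 the FPKM mean was higher in the knockout-labelled group, where 45% of all tested genes were. Emilin2, a glycoprotein of elastic fibres, was at 13.6, 11.6 and 15.4 FPKM in knockout-labelled replicates, against 22.1, 15.8 and 39.4 FPKM in wildtype-labelled replicates. Its groups did not overlap, lower in the knockout-labelled libraries (log2 fold change −0.81, SE 0.35, limma adjusted p = 0.966), where 4.74% of all tested genes did so. Adamtsl4, which binds fibrillin, was at −0.65 (SE 0.33), and Thsd4, which promotes microfibril assembly, at 0.45 (SE 0.28). Without wildtype-labelled replicate 3 Emilin2 was at −0.46 and Adamtsl4 at −0.37, and without wildtype-labelled replicate 2 Thsd4 was at 0.26.

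Of 13 crosslinking partners, 10 were tested, 4 with log2 fold changes above 0 and 6 below (median −0.03). Loxl4, the remaining lysyl oxidase, was under the minimum, at 0.114, 0.239 and 0.399 FPKM in knockout-labelled replicates, against 0.098, 0.218 and 0.121 FPKM in wildtype-labelled replicates, on 2 to 15 reads. Postn encodes periostin, a matricellular protein that aids the activation of Lox. It was at 404, 246 and 287 FPKM in knockout-labelled replicates, against 259, 114 and 180 FPKM in wildtype-labelled replicates (log2 fold change 0.81, SE 0.40, limma adjusted p = 0.966), and the groups overlapped. Its value was 0.50 without wildtype-labelled replicate 2. The collagen lysyl hydroxylase gene Plod2 was at 0.51 (SE 0.38) and the copper importer gene Slc31a1 at 0.33 (SE 0.29), also overlapping. With 1 library left out Plod2 ran from 0.25 (no wildtype-labelled replicate 2) to 0.90 (no wildtype-labelled replicate 1). Slc31a1 was at 0.56 without wildtype-labelled replicate 1 and 0.092 without wildtype-labelled replicate 3.

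Of 9 fibrillar collagens, the other substrate of lysyl oxidases, 7 were tested, 3 with log2 fold changes above 0 and 4 below (median −0.06). Col11a1 was at 4.56, 2.10 and 3.46 FPKM in knockout-labelled replicates, against 2.03, 0.800 and 2.31 FPKM in wildtype-labelled replicates (log2 fold change 0.83, SE 0.39, limma adjusted p = 0.966). Col5a2 was at 0.31 (SE 0.34) and Col5a3 at −0.26 (SE 0.46). As for Loxl1, the Col5a3 value was positive, 0.25, without wildtype-labelled replicate 3. Col11a1 was at 0.49 and Col5a2 at 0.024 when wildtype-labelled replicate 2 was left out. TGF-beta ligands, which microfibrils hold in check, and TGF-beta receptors had 5 log2 fold changes above 0 and 3 below of 8 tested (median 0.10). Tgfb2 was at 0.19 (SE 0.23), Tgfbr1 at 0.28 (SE 0.34) and Tgfbr2 at 0.14 (SE 0.27). With 1 library left out Tgfbr1 ran from 0.040 (no wildtype-labelled replicate 3) to 0.57 (no wildtype-labelled replicate 1).

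Proteases that degrade elastin and their inhibitors had 8 log2 fold changes above 0 and 1 below among 9 tested of 12 listed (median 0.26). Ctss, a cathepsin with elastase activity, was at 14.9, 19.3 and 15.3 FPKM in knockout-labelled replicates, against 6.68, 8.82 and 6.53 FPKM in wildtype-labelled replicates. Its groups did not overlap, and the log2 fold change came to 1.12 (SE 0.25, unadjusted p = 0.00159, limma adjusted p = 0.966). The cathepsin genes Ctsk, at 0.86 (SE 0.27), and Ctsl, at 0.65 (SE 0.27), did not overlap either. These were 3 of 9 tested, where 5.02% of all tested genes did so in that direction. Mmp12, the macrophage elastase, was under the minimum, at 0.771, 1.65 and 0.321 FPKM in knockout-labelled replicates, against 0, 0.109 and 0.0455 FPKM in wildtype-labelled replicates, on 0 to 32 reads. Mmp9 was under it too, and Mmp7 had no read in any library.

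**Figure D4:**
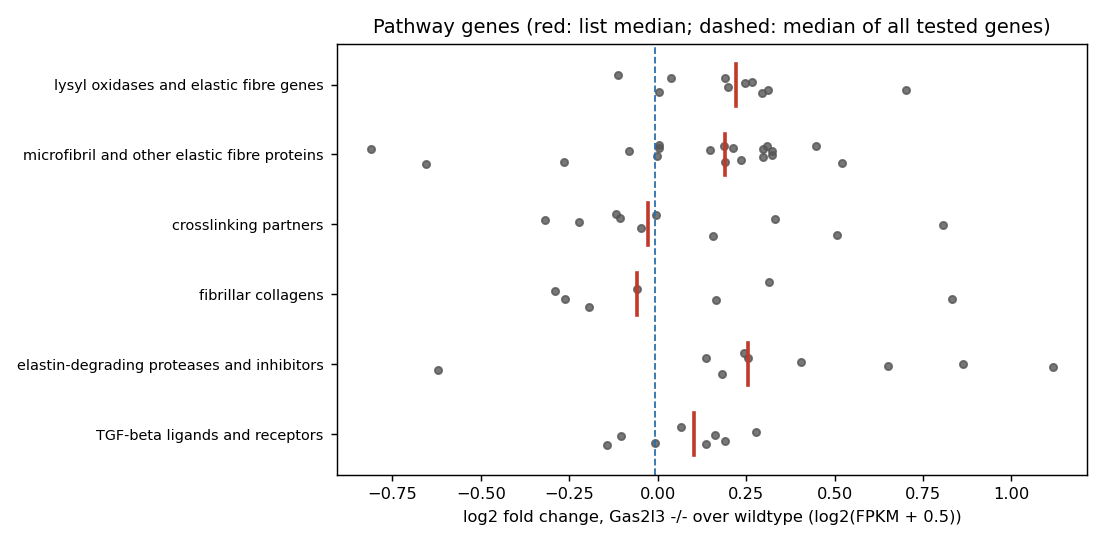
Log2 fold changes, knockout-labelled (Gas2l3 -/-) over wildtype-labelled, of every tested gene of the 10 members and of 5 pathway lists, each point a gene, with the list median in red and the median of all 12121 tested genes dashed. The 3 cathepsin genes form the right end of the protease list, and Emilin2 and Adamtsl4 the left end of the microfibril list.

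Markers of the cells that make or border elastic fibres varied alongside. In bulk RNA fewer cells of a type and less RNA per cell cannot be told apart. The 6 smooth muscle markers summed to 390, 489 and 700 FPKM in knockout-labelled replicates and 424, 557 and 804 FPKM in wildtype-labelled replicates, highest in both libraries numbered 3 as Eln was. Of these, Myh11, a marker of mature smooth muscle, was at 0.468, 0.253 and 2.14 FPKM in knockout-labelled replicates, against 2.30, 0.358 and 1.99 FPKM in wildtype-labelled replicates. Fibroblast markers (6 of 6 tested) had 5 log2 fold changes above 0, with Col1a1 at −0.29, and summed to between 489 and 644 FPKM in knockout-labelled and between 391 and 791 FPKM in wildtype-labelled libraries, so the sums overlapped. Col1a1 was both the most abundant of them and the marker below 0. Without Col1a1 the sums were between 311 and 482 FPKM in knockout-labelled and between 227 and 285 FPKM in wildtype-labelled libraries, which did not overlap. The most abundant markers left, Dcn and Dpt, each overlapped. Their log2 fold changes were 0.43 and 0.70 as deposited, and 0.17 and 0.60 with trends removed. Single markers whose groups did not overlap were Lum and Tcf21, both higher, 2 of 6, where 5.02% of all tested genes did so. Macrophage markers (5 of 5 tested, 5 log2 fold changes above 0, 4 higher FPKM means) summed to between 47.4 and 88.8 FPKM in knockout-labelled and between 26.3 and 37.0 FPKM in wildtype-labelled libraries, beside the cathepsin genes. The separation of the sums rests on Lyz2. Without it they were between 15.3 and 18.2 FPKM in knockout-labelled and between 9.49 and 16.9 FPKM in wildtype-labelled libraries, which overlapped. As single markers, Lyz2, Ly86 and Adgre1 had groups that did not overlap, all higher, 3 of 5, where 5.02% of all tested genes did so. Ly86 had 5 to 32 reads a library and Adgre1 had 19 to 60. Csf1r and Cd68 overlapped. The 6 cardiomyocyte markers summed to between 17628 and 18596 FPKM in knockout-labelled and between 19211 and 25796 FPKM in wildtype-labelled libraries. As deposited, 6 of 6 had log2 fold changes below 0, Tnnt2 only at −0.0050, and each overlapped as a single marker. Tnnt2 was at 0.016 with trends removed, and Ttn at 0.067 without wildtype-labelled replicate 3. The list median was −0.47 as deposited, −0.32 with trends removed and −0.22 without wildtype-labelled replicate 3. The part of these markers in the values of the members was not tested.

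The sums of 4 further lists overlapped between the groups. The 4 pericyte markers summed to between 76.0 and 99.2 FPKM in knockout-labelled and between 49.0 and 103 FPKM in wildtype-labelled libraries, and the 6 endothelial markers to between 326 and 383 FPKM in knockout-labelled and between 202 and 427 FPKM in wildtype-labelled libraries. The 5 epicardial markers summed to between 81.4 and 95.0 FPKM in knockout-labelled and between 64.7 and 129 FPKM in wildtype-labelled libraries. The 5 valve and cushion markers summed to between 70.7 and 81.4 FPKM in knockout-labelled and between 67.2 and 94.3 FPKM in wildtype-labelled libraries. Single markers of these lists whose groups did not overlap were Emcn (1 of 6 endothelial) and Sox9 (1 of 5 valve and cushion). Both were higher, where 5.02% of all tested genes did so. The log2 fold change was 1.08 for Emcn (SE 0.30, limma adjusted p = 0.966) and 0.43 for Sox9 (SE 0.23, limma adjusted p = 0.966). The sum of the 4 atrial markers did not overlap. Led by Nppa, with the other 3 log2 fold changes below 0, it came to between 6463 and 8448 FPKM in knockout-labelled and between 2026 and 5218 FPKM in wildtype-labelled libraries, and without Nppa it overlapped. Of 6 markers of lung, cartilage, liver and fat, only the liver gene Alb was tested, and it was listed at 0 in both libraries numbered 3, where Eln was highest. The cartilage gene Acan, under the minimum, was highest in those same libraries, at 0.021, 0.227 and 0.924 FPKM in knockout-labelled replicates 1, 2 and 3, against 0.109, 0.089 and 0.713 FPKM in wildtype-labelled replicates. Acan had 47 and 32 reads in the libraries numbered 3 and 1 to 9 in the others. The cartilage gene Col2a1, on 1 to 6 reads, did not share this pattern in the knockout-labelled group. It was at 0.091, 0.036 and 0.085 FPKM in knockout-labelled replicates, against 0.157, 0.077 and 0.193 FPKM in wildtype-labelled replicates. The part of other tissue in the level of Eln was not tested.

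Of all tested genes that are not members, 5 followed the mean profile of the members most closely, by Pearson's r over the 6 libraries. They were Fgd5 (0.99), Fndc1 (0.98), Gdf10 (0.98), Fn1 (0.98) and Fam219a (0.97), on the values as deposited. With GC and length trends removed, wildtype-labelled replicate 3 was the lowest library for Fgd5 (3.02 on the log2 scale) and Fam219a (2.21). For Fndc1, Gdf10 and Fn1 the libraries numbered 3 then remained the highest of their groups. Fn1, the gene of fibronectin, was at 61.5, 45.2 and 96.4 FPKM in knockout-labelled replicates, against 43.3, 25.5 and 129 FPKM in wildtype-labelled replicates, with both libraries numbered 3 the highest of their groups. It had a log2 fold change of 0.30 (SE 0.57, limma adjusted p = 0.966).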

How the data were processed

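The authors deposited FPKM per gene for 6 libraries, and a table of their DESeq2 comparison, in which several other values per gene (mean of scaled counts, log2 fold change, SE, p-values) are joined in 1 field, per the file headers. Without versions, the authors listed mm10, FastQC and DESeq2, per the submitters' processing notes. Which aligner, counter and annotation were used, and whether strand was, is not given in the sources used here. Per the labels' protocols, hearts gave DNase-treated RNA, poly(A) selection and NEBNext Ultra libraries.

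From the values, the FPKM were scaled by size factors rather than library totals. All 94235 values above 0 gave whole reads when both tables were combined (100% within a tolerance of 0.01). Read numbers cover counting error only, as PCR copies cannot be told from molecules.

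The main test was limma 3.58.1 (R 4.3.3), moderated with a mean-variance trend, on log2(FPKM + 0.5) with group as the factor, two-sided, on genes with 1 FPKM or more in at least 3 libraries, with Benjamini-Hochberg adjustment over all 12121 and calls under 0.05. This scale understates changes of low genes. The limma code was tested on simulated data. GC content was that of each symbol's longest transcript in GENCODE M21 (96.6% of tested genes), length from reads per FPKM, and trends were removed by loess (span 0.3). The labels do not say what a replicate number marks. Deviations from group means correlated at 0.47, 0.44 and 0.19 for equal numbers as deposited, and at 0.28, 0.39 and 0.12 with GC and length trends removed. For unequal numbers they ran from −0.40 to 0.07 as deposited. Whether equal numbers mark pairs of samples was not tested. The members and all lists were chosen with earlier results of these data known. Named genes were the members, Gas2l3, up to 3 genes per pathway list by smallest p and the 5 genes most like the members, predicted and microRNA genes left out. Loxl4, the matrix metalloproteinases and the markers named beside results fall outside that rule, chosen with their values in view. Marker sums without the most abundant gene of a list were added after seeing the data. Some lists share genes.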

Additional observations from a re-analysis of the deposited data

How the results depend on the processing

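Over 21 alternatives 0 members were called in each, and the lowest adjusted p of any member was 0.332 (limma, for Lox with library weights). The number of genes called among all tested was 1 with GC and length trends removed and 2 with library weights, against 0 otherwise. Lox and Loxl2 kept a positive log2 fold change in every alternative, from 0.46 to 1.09 and from 0.13 to 0.72. Loxl1 turned positive with a common FPKM total (0.068), quantile normalization (0.044), trends removed with or without the replicate block (0.19), library weights (0.27) and without both replicates numbered 3 (0.36). Fbn2, near 0, was −0.00061 with a pseudocount of 1 and −0.015 with voom on recovered reads. Fbln5 was −0.20 without both replicates numbered 3. Col5a3 turned to 0.088 with trends removed, with or without the replicate block, 0.40 with library weights and 0.19 without both replicates numbered 3. The cause of these changes was not tested. With 1 library left out the members' median ran from −0.066 to 0.59, and single values ran from −0.58 to 0.47 for Loxl1, −0.012 to 0.66 for Loxl3, −0.53 to 0.87 for Eln, −0.23 to 0.70 for Fbn1, −0.42 to 0.26 for Fbn2, −0.52 to 0.87 for Fbln5, −0.40 to 0.56 for Efemp2, −0.067 to 0.45 for Mfap5, −0.68 to 0.25 for Col5a3 and −0.016 to 0.33 for Tgfbr2. A replicate block left the log2 fold changes as they were (Lox 0.70, unadjusted p = 0.0169, limma adjusted p = 0.778) and changed no call of a member or of any gene as deposited. With block and trends removed together 0 genes were called, and Lox (unadjusted p = 0.015) and Loxl2 (0.048) were the 2 members under 0.05, where 6% of genes were in that direction. The members' median was highest with library weights, at 0.68 (all genes −0.017), with Eln at 1.66 and Fbln5 at 1.58. That fit leans on 1 library: knockout-labelled replicate 3 had a weight of 5.26 and wildtype-labelled replicate 3 one of 0.16, against 0.45 to 1.68 in the others. A common FPKM total moved the median of all genes to 0.15, and the members' median to 0.39. The 2 alternatives chosen after seeing the data were leaving out both replicates numbered 3 and estimating library weights gene by gene, since the joint estimate did not converge. Loxl3 has no value at a mean of 5 FPKM or more. Calls at an adjusted p under 0.1 were also 0. Depth limits chiefly Loxl3 and Loxl4 among the lysyl oxidases.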
